A study of Mus musculus with 2 samples.

Results

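The Lhx8 nuclei of the embryonic mouse brain were 413 nuclei of the library from embryonic day 14 (E14). A nucleus was taken when it held at least 1500 UMIs (unique molecular identifiers, each marking 1 captured RNA molecule), under 5% mitochondrial UMIs and at least 2 UMIs of Lhx8. They made up 5.48% of the 7531 nuclei of at least 1500 UMIs (95% exact binomial interval 4.98 to 6.02%), out of 9037 nuclei in the library and 10698 in the series. Because Lhx8 UMIs chose them, the level of Lhx8 in these nuclei is a description and not a finding. They were compared with the 7118 other nuclei of at least 1500 UMIs, and with 214 of these that held at least 2 Lhx6 UMIs and no Lhx8 UMI, called Lhx6 nuclei below.

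Lhx8 encodes a LIM-homeodomain transcription factor, a class of proteins that bind DNA through a homeodomain and bind partners such as Ldb1 through their LIM domains. It is known from the medial ganglionic eminence, the ventral embryonic forebrain region patterned by Nkx2-1, and is required there for cholinergic neurons of the basal forebrain and striatum. Its paralogue Lhx6 is known for the GABAergic interneurons that leave the same region for the cortex, so the pair Lhx8 and Lhx6 is a usual way of separating neurons that stay in the ventral forebrain from those that migrate.

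The study applied Slide-tags, which tags nuclei in a tissue section with spatial barcodes before single-nucleus RNA sequencing. The E14 library came from a 20 µm sagittal section of the brain of a C57BL/6J embryo (an inbred strain), purchased whole and snap-frozen after the mother was perfused with buffered saline; no transgene or treatment is named for it. The second library, from adult hippocampus, held 1 Lhx8 UMI in 1661 nuclei, so it is not compared further. With 1 library per tissue there are no replicates and nothing was tested. The intervals given are exact 95% Poisson intervals for summed UMIs and exact 95% binomial (Clopper-Pearson) intervals for shares, and both cover counting error only. Spatial positions were not analysed here.

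Levels are given in CPM, the UMIs of a gene summed over a group of nuclei and scaled to 1000000 UMIs of that group. The E14 library held 58924407 UMIs, with a minimum of 500 and a median of 4203 per nucleus, and shared 1 barcode with the hippocampus library. The Lhx8 nuclei were deeper than the rest, with a median of 9417 UMIs against 4843.5 in the other nuclei and 7849.5 in the Lhx6 nuclei. Because a deeper nucleus reaches 2 Lhx8 UMIs more easily, shares of nuclei are also given after thinning each nucleus to 1500 UMIs, which leaves out none of those compared. The part of depth in the results beyond these checks was not tested.

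The Lhx8 nuclei held 1621 Lhx8 UMIs, 81.4% of those in all nuclei of at least 1500 UMIs. The median was 3 and the maximum 30 per nucleus. Just inside the threshold lay 152 nuclei with exactly 2 Lhx8 UMIs, 93 had 3, and 168 had 4 or more. Just outside lay 370 nuclei with 1 Lhx8 UMI, whose AI606473 level of 35.9 CPM was nearer to the 51.4 CPM of the nuclei with 2 than to the 1.92 CPM of the nuclei with none.

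Lhx8 lies on chromosome 3 at 154306294 to 154330659 on the minus strand (GRCm38, GENCODE vM21). The noncoding transcript AI606473, whose fold against the other nuclei was the largest among the genes past the filter, starts 161 bases away on the plus strand and runs from 154330821 to 154334254, head to head with it. The start regions of both genes overlap by 240 bases when each is taken as 250 bases before to 50 after the RefSeq start. The part of the Lhx8 start region that lies between the 2 gene models, chr3:154330660-154330810 on GRCm38.p6, is shown because the transcripts run away from it on either side. It is given 5′ to 3′ on the Lhx8 strand, in lower case throughout since no motif match falls in it.
Lhx8 start region: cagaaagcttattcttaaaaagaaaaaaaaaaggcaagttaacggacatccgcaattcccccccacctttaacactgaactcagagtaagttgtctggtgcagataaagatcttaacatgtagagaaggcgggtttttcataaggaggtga
Both strands of the full window of 300 bases were searched for TAATTA, a core bound by many homeodomain proteins, and CAAGTG, a core bound by Nkx2 proteins. Neither occurred, while 5.29% and 13.6% of the 32851 RefSeq start regions of this length held them. The absence concerns these letters in this window only.

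The Lhx8 nuclei did not form 1 group. Seurat clustering of the nuclei gave 22 clusters, each with at least 1 Lhx8 nucleus. Cluster 6 held the most, 149 of 413 (36.1%), which were 33.1% of its 450 nuclei (28.8 to 37.7%). Its leading genes against all other clusters were AI606473, Lhx8, Trpc4, Slc10a4, Gbx1, Adarb2, Robo3, Fgf15, Fgd5 and Hs3st2, of which Lhx8, Trpc4 and Adarb2 are markers given for the cells. These genes took part in the clustering, so they describe the cluster and are no evidence for it. When Lhx8 and AI606473 were left out of the genes used for clustering, a choice made after seeing the data, the cluster with the most Lhx8 nuclei held 124 of them among 1122 nuclei (11.1%), and 110 of the 149 were in it.

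Cluster 5 held 79 Lhx8 nuclei (16.0% of its 494 nuclei) and cluster 8 held 44 (11.7% of 376). Cluster 5 was the deepest, with a median of 13443.5 UMIs, leading genes of glia and progenitors such as Fgfr3 and Bcan, and 36.2% of its nuclei among those of the highest doublet scores. Its Lhx8 nuclei had a median of 34728 UMIs and gave 3115661 of the 7139087 UMIs of all Lhx8 nuclei. Cluster 8 was led by Lhx6, Dlx6os1, Ackr3, Erbb4 and Sox6, and held 91 of the 214 Lhx6 nuclei (42.5%). The remaining 141 Lhx8 nuclei lay in the other 19 clusters.

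**Figure D1:**
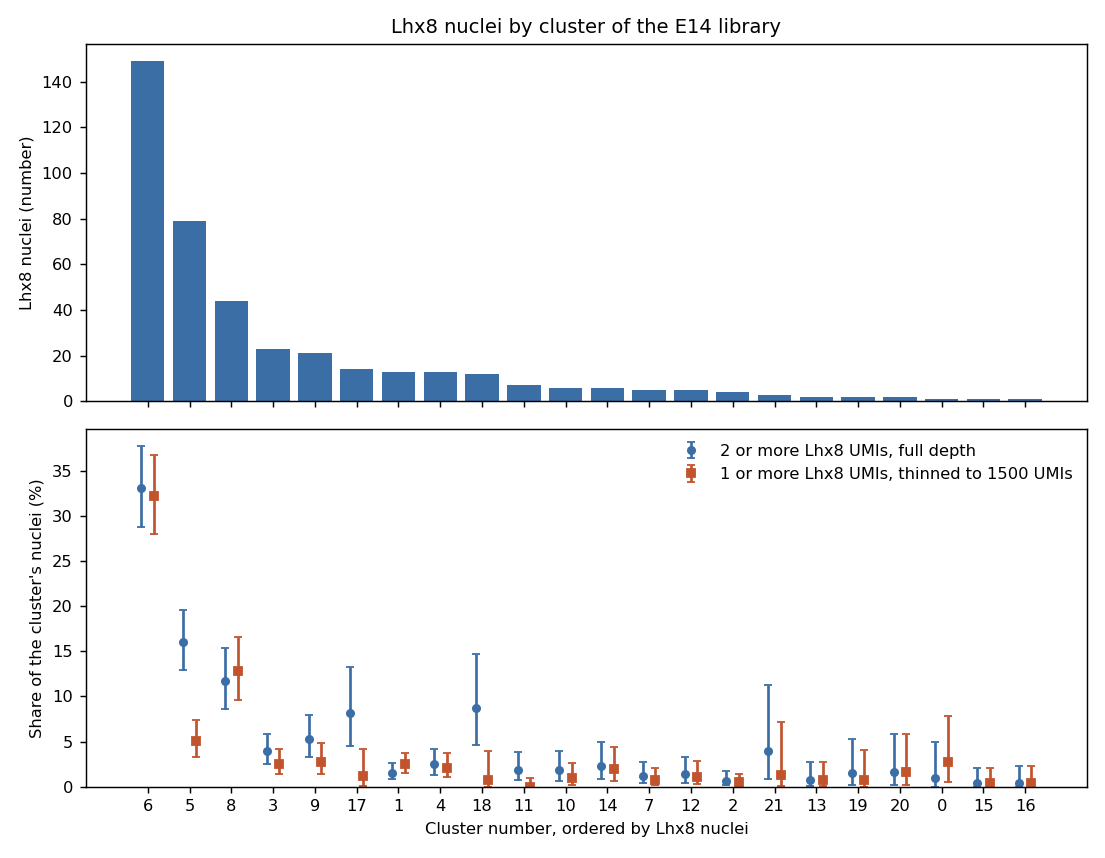
The upper plot gives the number of Lhx8 nuclei in each of the 22 clusters, ordered by that number. The lower plot gives their share of the cluster's nuclei of at least 1500 UMIs in percent (circles) and the share of nuclei with at least 1 Lhx8 UMI after thinning to 1500 UMIs (squares), with exact 95% binomial intervals; the thinned share was 32.2% in cluster 6, 12.8% in cluster 8 and at most 5.06% in the others.

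Thinning separated these clusters. After it, 32.2% of the nuclei of cluster 6 (27.9 to 36.8%) and 12.8% of cluster 8 (9.56 to 16.6%) still had an Lhx8 UMI, against 5.06% of cluster 5 (3.30 to 7.38%). Cell types without known Lhx8 expression serve as a background. Cluster 18, led by choroid plexus genes such as Clic6 and Htr2c, had 8.70% Lhx8 nuclei at a median of 10957 UMIs but 0.725% with an Lhx8 UMI after thinning. Cluster 17, led by endothelial genes such as Sox17 and Aplnr, had 8.14% at a median of 9021.5 UMIs and 1.16% after thinning. Cluster 6 stood above these clusters at both depths, which is a description only, since Lhx8 UMIs chose the nuclei and Lhx8 was among the clustering genes. The leading cluster made without Lhx8 and AI606473, at 11.1%, lay inside the full-depth intervals of cluster 17 (4.52 to 13.3%) and cluster 18 (4.57 to 14.7%). Cluster 8 stood above both after thinning, while its full-depth interval of 8.63 to 15.4% overlapped those of clusters 17 and 18.

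The label of ventral forebrain neurons was checked against genes of that region. Of the 149 Lhx8 nuclei of cluster 6, 86.6% had a UMI of Gad2, which makes GABA, and 8.05% a UMI of Slc17a6, the vesicular glutamate transporter of subcortical neurons. The values in the other nuclei were 45.3% and 32.8%. After thinning, Gad2 was found in 51.7% of the cluster 6 part and 25.8% of the other nuclei, and Slc17a6 in 2.01% of the cluster 6 part and in 1000 of the 7118 other nuclei. These shares fit the label of a forebrain GABA neuron for the Lhx8 nuclei of cluster 6, which are described as a group of their own below.

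Among all 413 Lhx8 nuclei, 30.8% had a Slc17a6 UMI, 27.8% one of the division gene Mki67, and 12.3% one of the fibroblast collagen gene Col3a1. After thinning these shares were 6.30% (4.15 to 9.09%), 5.33% (3.37 to 7.95%) and 2.18% (1.00 to 4.10%). In the other nuclei Slc17a6 was found in 1000 of 7118, Mki67 in 6.38% and Col3a1 in 5.83%. Slc17a6 and Col3a1 thus lay below the other nuclei, while the interval for Mki67 included their value. The 264 Lhx8 nuclei outside cluster 6 had Slc17a6 in 43.6% and Mki67 in 41.7% at full depth, and in 8.71% and 6.82% after thinning. Their median depth was 14350 UMIs, and 23.9% had one of the highest doublet scores, against 2.01% in cluster 6. The part of doublets in the values of these 264 nuclei was not tested.

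Against the other nuclei, the 413 Lhx8 nuclei showed higher levels of AI606473 and of genes of the medial ganglionic eminence, and lower levels of Igf2 and of 2 hypothalamic genes, Otp and Sim1. AI606473 stood at 54.5 CPM against 4.66 CPM, 11.7-fold higher (9.93 to 13.8). Nkx2-1, the factor that specifies the medial ganglionic eminence, stood at 48.9 against 20.1 CPM. It was not particular to the Lhx8 nuclei or their clusters. Its highest level was 116 CPM in cluster 15, with 1 Lhx8 nucleus and the hypothalamic genes Sox14 and Nkx2-2 among its leading genes. Cluster 8 stood at 69.9 CPM and cluster 6 at 62.9 CPM. The noncoding gene Sfta3-ps, which ends 2530 bases from Nkx2-1 on chromosome 12, stood at 382 against 133 CPM. Lhx6 was 3.14-fold higher (2.83 to 3.49), at 73.8 against 23.5 CPM.

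Of 7833 genes with a mean of at least 20 CPM over both groups, 17 were at least 2-fold higher (0.217%) and 15 at least 2-fold lower (0.191%) in the Lhx8 nuclei, Lhx8 itself left out. The genes 2-fold higher included the axon guidance ligand Ntn1 at 2.20-fold, the neighbouring genes Lypd6 and Lypd6b, which encode modulators of acetylcholine receptors, at 2.22- and 2.23-fold, and the noncoding Dlx6os1 at 2.07-fold. Among the lowest were Igf2 at 0.398-fold, the hypothalamic factor Sim1 at 0.441-fold and Onecut1 at 0.456-fold. The counts changed with the weighting and depth of the nuclei. With each nucleus weighted equally, 36 genes were 2-fold higher and 102 lower, and within nuclei of 3000 to 10000 UMIs 72 and 231.

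Restricted to the 149 Lhx8 nuclei of cluster 6, the differences from the other nuclei were larger. Of 7641 genes, 113 were at least 2-fold higher (1.48%) and 415 at least 2-fold lower (5.43%). AI606473 reached 142 CPM (120 to 166) and was 30.4-fold higher. Robo3, a guidance receptor of axons that cross the midline, stood at 64.9 CPM against 7.86 CPM, 8.25-fold higher. Gbx1, a homeobox factor of the basal ganglia, was 5.73-fold higher at 50.2 CPM, and Nkx2-1 was 4.17-fold higher at 84.0 CPM. These folds belong to a cluster that was built partly on these genes and are not independent of it.

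**Figure D2:**
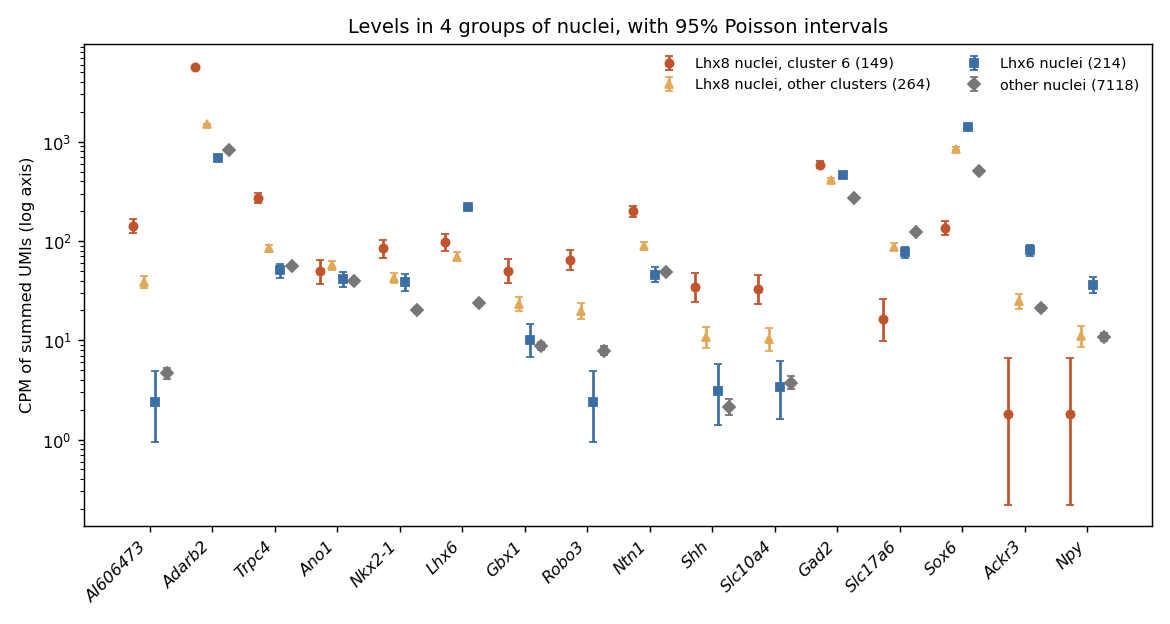
Levels of 16 genes in CPM of summed UMIs on a log axis, for the Lhx8 nuclei of cluster 6, the Lhx8 nuclei of all other clusters, the Lhx6 nuclei and the other nuclei, with exact 95% Poisson intervals. AI606473 stood at 142 CPM in cluster 6 Lhx8 nuclei, 38.7 in the remaining Lhx8 nuclei, 2.37 in Lhx6 nuclei and 4.66 in the other nuclei, while Ackr3 and Npy stood lowest in the cluster 6 Lhx8 nuclei, with 2 UMIs each.

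The 4 genes given as markers of these cells differed in how they followed Lhx8. Adarb2 encodes an RNA-binding relative of the adenosine deaminases that lacks editing activity. It stood at 2132 CPM in the Lhx8 nuclei (2098 to 2166), 818 CPM in the other nuclei and 686 CPM in the Lhx6 nuclei, and at 5665 CPM in the Lhx8 nuclei of cluster 6. It was detected in 308 of the 413 Lhx8 nuclei, the middle nucleus holding 11 UMIs of it. The highest level of Adarb2 was in cluster 20, led by Penk and Ddc, at 8556 CPM. Only 2 of the 121 nuclei of cluster 20 were Lhx8 nuclei. Cluster 6 as a whole, Lhx8 nuclei or not, stood at 4639 CPM. The related Adar and Adarb1 were 0.898- and 0.963-fold, so of the 3 measured deaminase genes only Adarb2 passed 2-fold.

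Trpc4, a channel of the canonical transient receptor potential family, stood at 113 CPM in the Lhx8 nuclei (106 to 121), 55.6 CPM in the other nuclei and 50.5 CPM in the Lhx6 nuclei. In the Lhx8 nuclei of cluster 6 it reached 274 CPM, 4.93-fold above the other nuclei. Of the 4 canonical channel genes past the filter it was the only one past 2-fold, and Trpc5 stood at 0.761-fold.

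Ano1, a calcium-activated chloride channel, did not pass 2-fold against the other nuclei or the Lhx6 nuclei. It stood at 56.0 CPM in the Lhx8 nuclei (50.7 to 61.8), 39.4 CPM in the other nuclei and 49.3 CPM in the Lhx8 nuclei of cluster 6. Its highest level was in cluster 9, led by Olig2, at 303 CPM. Cluster 6 as a whole, Lhx8 nuclei or not, stood at 163 CPM. Within cluster 6 it was high in nuclei with no Lhx8 UMI, at 332 CPM, and not in those chosen on Lhx8 UMIs.

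Within cluster 6 the markers ran in opposite directions. Its 450 nuclei were split by their Lhx8 UMIs into 190 with none, 111 with 1, 87 with 2 or 3 and 62 with 4 or more. Trpc4 stood at 719 CPM in nuclei with no Lhx8 UMI (665 to 776), 423 CPM with 1, 405 CPM with 2 or 3, and 161 CPM with 4 or more (130 to 197). Ano1 went from 332 CPM (295 to 371) through 118 and 85.0 to 18.7 CPM (9.32 to 33.4). Meis2, a homeobox factor of striatal neurons and of the lateral ganglionic eminence, went from 942 CPM through 354 and 255 to 136 CPM. In each of the 3 groups with Lhx8 UMIs, 10 nuclei held at least 91.6% of the Meis2 UMIs, 72.0% of those of Ano1 and 63.6% of those of Trpc4.

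Adarb2 ran the other way, from 2949 CPM with no Lhx8 UMI to 5291, 4848 and 6366 CPM. AI606473 went from 33.0 to 126, 119 and 161 CPM. Shh, the hedgehog ligand, went from 8.79 CPM (3.80 to 17.3) to 14.2, 21.8 and 45.8 CPM (30.2 to 66.7). The cadherin gene Cdh7 went from 62.6 to 89.7, 101 and 166 CPM. In each of the groups with Lhx8 UMIs, 10 nuclei held at least 70.4% of the Shh UMIs and 71.4% of those of Cdh7. After thinning, Shh was found in 1.05, 3.60, 5.75 and 4.84% of the nuclei of the groups in order, with overlapping intervals. Gbx1 stayed between 70.3 and 75.2 CPM in the first 3 groups and was 28.9 CPM in nuclei with 4 or more.

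**Figure D3:**
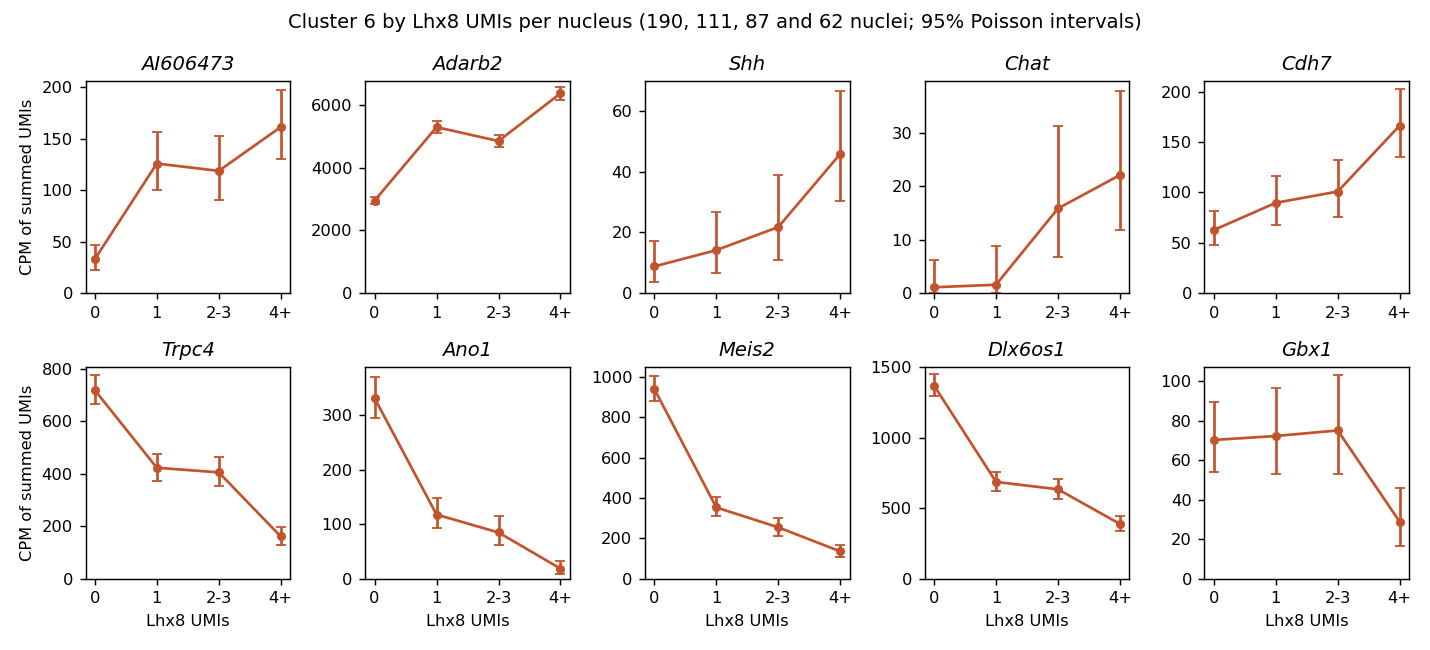
Levels of 10 genes in CPM of summed UMIs in the 450 nuclei of cluster 6, split by Lhx8 UMIs per nucleus (190, 111, 87 and 62 nuclei), with exact 95% Poisson intervals and each axis from 0. Trpc4, Ano1, Meis2 and Dlx6os1 were highest in nuclei with no Lhx8 UMI, and AI606473, Adarb2, Shh, Chat and Cdh7 in nuclei with 4 or more.

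The difference between nuclei with and without Lhx8 was also present at fixed depth. After thinning to 1500 UMIs, 42.1% of the nuclei with no Lhx8 UMI had a Trpc4 UMI, against 19.5% of the 149 Lhx8 nuclei, and for Ano1 25.8% against 4.70%. For Adarb2 the shares were 42.1% and 71.1%, and for Meis2 36.8% and 8.72%. Restricted to nuclei of 3000 to 10000 UMIs, Trpc4 went from 724 CPM in nuclei with no Lhx8 UMI to 108 CPM in those with 4 or more, and Ano1 from 281 to 24.1 CPM. Adarb2 there stood at 3366 CPM with no Lhx8 UMI and at 5215, 5452 and 4931 CPM in the other groups, so it did not go on increasing with Lhx8 UMIs. In the Lhx8 nuclei of cluster 6 the Trpc4 UMIs were unevenly held, 62.3% of them in 10 nuclei.

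Trpc4 and Ano1 also went together nucleus by nucleus. Of the 197 nuclei of cluster 6 with a Trpc4 UMI, 47.2% had an Ano1 UMI, against 7.91% of the nuclei without Trpc4. Adarb2 was found in 45.2% of nuclei with Trpc4 and 75.5% of those without it, and Lhx8 in 46.2% and 66.8%. These pair shares were taken at full depth only, and the part of depth in them was not tested. Cluster 6 thus held nuclei with Trpc4, Ano1 and Meis2 and nuclei with Lhx8, AI606473 and Adarb2, with overlap between them. Whether these are 2 cell types was not tested.

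Genes with a role in acetylcholine signalling were sparse at this stage, and Chat was higher in the Lhx8 nuclei of cluster 6 than in the other nuclei. Chat, which synthesizes acetylcholine, had 26 UMIs in the 413 Lhx8 nuclei, of which 21 were in cluster 6 (19.2 CPM, 11.9 to 29.3) and 5 in the other Lhx8 nuclei (0.827 CPM). The 7118 other nuclei held 33 (0.654 CPM). It was detected in 11 of the 149 Lhx8 nuclei of cluster 6 (7.38%), 10 of which held 95.2% of its UMIs there, and in 28 of the other nuclei (0.393%). In cluster 6 nuclei with no Lhx8 UMI there was 1 Chat UMI in 190 nuclei.

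Slc18a3, the vesicular acetylcholine transporter gene, lies inside the Chat gene on the same strand, over 2413 bases on chromosome 14, so reads there can belong to either. Slc10a4, a transporter-like protein of cholinergic vesicles, stood at 32.9 CPM in cluster 6 Lhx8 nuclei (23.0 to 45.5), 37.4 CPM in cluster 6 nuclei with no Lhx8 UMI (25.9 to 52.2) and 3.74 CPM in the other nuclei. The intervals of both cluster 6 groups overlapped. Prima1, the membrane anchor of acetylcholinesterase, stood at 28.3 against 1.74 CPM, but 96.8% of its UMIs there were in 10 nuclei. Of the 7 cholinergic genes listed, 1 passed the filter of 20 CPM, and it did not pass 2-fold in either comparison.

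The profile of Lhx8 over the 22 clusters was most like that of Gbx1, with a Pearson correlation of the cluster CPM values of 0.965, and AI606473, at 0.959. Trpc4 followed at 0.928, Slc10a4 at 0.908, Prima1 at 0.885 and Shh at 0.851. These 6 genes had their highest level in cluster 6, which sets much of the correlation. The clusters share 1 library and differ in depth, so these values are a description of likeness. Dgkg and Carmil1, also among the 10 most alike, were highest in cluster 8.

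Shh fell below the filter of 20 CPM in the full comparison but is part of the hedgehog pathway listed. It stood at 14.4 CPM in the Lhx8 nuclei (11.8 to 17.5), 2.14 CPM in the other nuclei, and 34.7 CPM in the Lhx8 nuclei of cluster 6. The antisense gene 9530036O11Rik overlaps it by 8983 bases on chromosome 5 and was higher too, at 29.8 against 13.8 CPM. The strand setting of the counting was not given in the sources used here, so reads in the overlap cannot be told apart. Receptors and effectors of the pathway were not higher: none of the 6 measured hedgehog genes passed 2-fold in the full comparison, and in cluster 6 Lhx8 nuclei 5 of the 6 were 2-fold lower, against 5.43% of all genes, with the receptor component Smo at 0.401-fold and the transcription factor Gli2 at 0.0452-fold. Ptch1, the receptor that is itself a pathway target, stood at 0.844-fold there.

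GABA genes were higher in the Lhx8 nuclei than in the others. All 5 measured genes of the GABA list lay above 1 without passing 2-fold, with a median log2 fold of 0.57 against -0.04 over all 7833 genes. Gad2 stood at 442 against 273 CPM and Gad1, the second synthesizing enzyme, at 196 against 122 CPM. In cluster 6 Lhx8 nuclei the median was 0.89, and Gad2 and the vesicular transporter Slc32a1 passed 2-fold at 2.16 and 2.09. Slc17a6 stood at 0.623-fold in all Lhx8 nuclei and 0.133-fold in those of cluster 6. Within cluster 6, Gad1 stood at 403 CPM in nuclei with no Lhx8 UMI and at 220 CPM in the Lhx8 nuclei.

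Of the 11 measured factors of the medial ganglionic eminence lineage, 10 lay above 1 and 3 passed 2-fold (Nkx2-1, Lhx6 and Dlx6os1), with a median log2 fold of 0.59, where 0.217% of all 7833 genes passed 2-fold and their median was -0.04. The pallidal and septal factors had a median of 0.36, with Nkx2-1 and Etv1 past 2-fold out of 8. Etv1 stood at 60.4 CPM against 28.2 CPM in all Lhx8 nuclei, but at 25.6 CPM in those of cluster 6. There the pallidal list had a median of 0.74, with Gbx1, Zic1 and Nkx2-1 past 2-fold and Nr2f2 2-fold lower out of 9, against 1.48% and 5.43% of all 7641 genes and a median of -0.07. This list was not particular to the Lhx8 nuclei of cluster 6, as it summed to 2231 CPM in them and 2139 CPM in the cluster's other nuclei. Zic1 stood at 307 CPM in them and 325 CPM in cluster 6 nuclei with no Lhx8 UMI, and Gbx1 at 50.2 and 70.3 CPM. Nkx2-1 differed, at 84.0 and 36.3 CPM. The medial ganglionic eminence list summed to 1611 CPM in the cluster 6 Lhx8 nuclei, against 1653 CPM in the other nuclei. Of its 10 genes measured there, 7 lay above 1, with a median of 0.71. Nkx2-1, Lhx6 and Dlx6 passed 2-fold and Sox6 was 2-fold lower. Sox6, a factor of migrating interneurons, stood at 135 CPM in cluster 6 Lhx8 nuclei, 743 CPM in all Lhx8 nuclei and 510 CPM in the other nuclei.

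**Figure D4:**
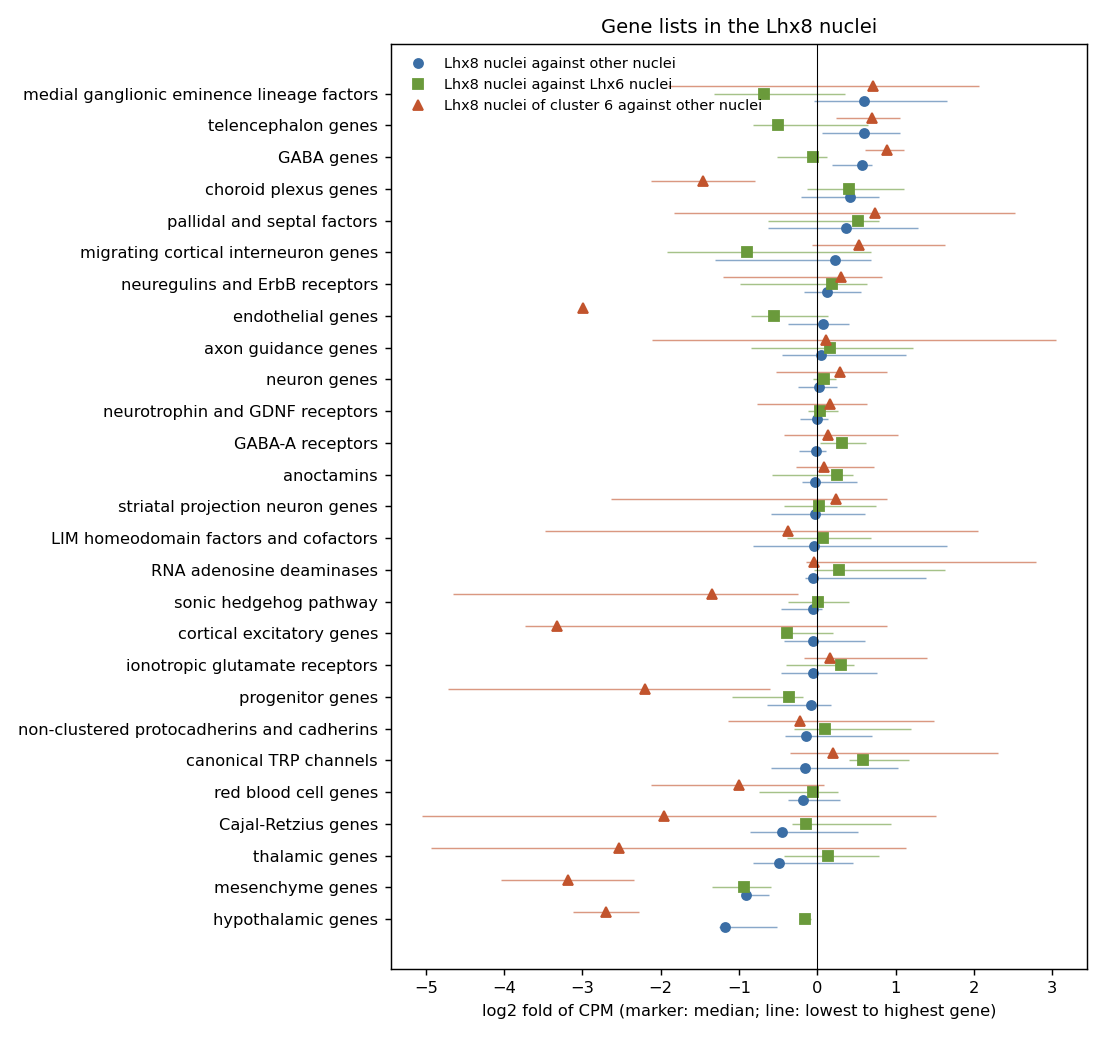
Median log2 fold of CPM of the measured genes of each list (markers), with the range of its genes (lines), for lists with at least 3 genes past the filter in the first comparison: all Lhx8 nuclei against other nuclei (circles), against Lhx6 nuclei (squares), and the Lhx8 nuclei of cluster 6 against other nuclei (triangles). The medians of the progenitor, mesenchyme and hypothalamic lists stood at -2.20, -3.19 and -2.70 for cluster 6, and at -0.08, -0.91 and -1.18 for all Lhx8 nuclei.

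Lists of other cell types marked the difference between the Lhx8 nuclei as a whole and those of cluster 6. The progenitor list summed to 675 CPM in all Lhx8 nuclei, 758 CPM in the other nuclei and 156 CPM in the cluster 6 part. The endothelial list summed to 135, 135 and 16.4 CPM, and the mesenchyme list to 121, 207 and 22.8 CPM. Ttr, a choroid plexus gene, was 1.72-fold higher in all Lhx8 nuclei, with 93.3% of its UMIs in 10 nuclei, and 0.230-fold in the cluster 6 part. The choroid plexus list summed to 1959 CPM in all Lhx8 nuclei, 1180 CPM in the other nuclei and 298 CPM in the cluster 6 part. The part of these cells' RNA in the values of all Lhx8 nuclei was not tested.

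Axon guidance genes were mixed. Of 27 measured, Ntn1 was the only one past 2-fold in all Lhx8 nuclei, at 107 CPM against 48.5 CPM. In cluster 6 Lhx8 nuclei 5 of 28 were 2-fold higher and 6 were 2-fold lower, against 1.48% and 5.43% of all genes. The neuropilins Nrp1 and Nrp2, receptors of class 3 semaphorins, stood at 2.95- and 3.08-fold there, the netrin receptor Unc5d at 2.25-fold, and Unc5c at 0.464-fold. The semaphorin Sema3a stood at 0.231-fold and the ephrin receptor Epha5 at 0.381-fold. The median of the list stayed near that of all genes, at 0.11 against -0.07.

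Peptide and receptor genes added a few members. Nts, the neurotensin precursor, stood at 32.0 CPM in cluster 6 Lhx8 nuclei against 8.34 CPM in the other nuclei, with 91.4% of its UMIs in 10 nuclei. Tacr1, the receptor of substance P, was 4.02-fold higher there, in 19 of 149 nuclei. Pex5l, a partner of HCN channels, was 4.49-fold higher at 318 CPM. The monoglyceride lipase gene Mgll stood at 61.2 against 13.1 CPM, and Ecel1, an endopeptidase of developing neurons, at 119 against 28.6 CPM. The kainate receptor subunit Grik3 and the GABA-A subunit Gabra5 were the receptor genes of their lists past 2-fold in cluster 6, at 2.65- and 2.03-fold.

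Compared with the 214 Lhx6 nuclei, the Lhx8 nuclei had less of most measured genes of migrating cortical interneurons. They had more of AI606473, Adarb2, Ntn1 and Trpc4. Of 7812 genes, 31 were at least 2-fold higher (0.397%) and 43 at least 2-fold lower (0.55%), with Lhx8 and Lhx6 left out. Ackr3, a chemokine scavenging receptor used by migrating interneurons, stood at 21.2 CPM in the Lhx8 nuclei against 80.3 CPM. Npy, a peptide of cortical interneurons, stood at 9.67 against 36.3 CPM, the interneuron peptide gene Sst at 14.6 against 35.3 CPM, and the factor Maf at 35.0 against 87.8 CPM. Of the 11 measured genes of that list these 4 were 2-fold lower and none was 2-fold higher, with a median log2 fold of -0.90 against -0.04 over all genes. Of the same 11, 3 lay above 1, the highest at a log2 fold of 0.68.

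On the higher side, AI606473 stood at 54.5 CPM against 2.37 CPM, and Adarb2 at 3.11-fold (2.96 to 3.25). Ntn1 was 2.33-fold higher, Trpc4 2.24-fold and the guidance gene Sema3c 2.30-fold. Cdh7, an adhesion molecule, was 2.28-fold higher at 78.2 against 34.2 CPM. Htr2c, at 288 against 105 CPM, had 97.7% of its UMIs in 10 Lhx8 nuclei, and its direction turned in the cluster 6 part. Nkx2-1 stood at 1.28-fold and Gad2 at 0.959-fold, so neither passed 2-fold between the 2 groups, while Dlx6os1 stood at 0.564-fold. Of the 11 measured factors of the medial ganglionic eminence lineage, Lhx6 left out, only 1 lay above 1 here, and Maf was 2-fold lower. Their median log2 fold was -0.68, and the list summed to 2372 CPM in the Lhx8 nuclei against 4224 CPM in the Lhx6 nuclei.

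Because both groups differ in cluster makeup, the contrast was also read inside cluster 8, where 44 Lhx8 nuclei and 91 Lhx6 nuclei lay together. Their median depths were 4061 and 4316 UMIs, and 0 and 2 of them had one of the highest doublet scores. Ntn1 stood at 179 CPM in the Lhx8 nuclei (130 to 240) and 16.4 CPM in the Lhx6 nuclei (7.51 to 31.2), detected in 18 of 44 and 7 of 91 nuclei. Lypd6 stood at 252 against 16.4 CPM, Lypd6b at 81.3 against 3.65 CPM, and Gbx1 had 18 UMIs in 8 of 44 nuclei against 6 UMIs in 3 of 91. Sfta3-ps was 2.41-fold higher (2.11 to 2.76), whereas Nkx2-1 itself was 1.47-fold higher with an interval that included 1 (0.901 to 2.36).

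The interneuron genes Ackr3, Npy, Maf and Sst were lower in the Lhx8 nuclei within that cluster too. Ackr3 stood at 40.6 CPM (19.5 to 74.7) against 219 CPM, Npy at 12.2 against 73.0 CPM and Maf at 28.4 against 146 CPM. Sst stood at 12.2 against 31.0 CPM, from 3 and 17 UMIs, with a ratio interval of 0.0737 to 1.36. Erbb4 and Nxph1, also in the interneuron list, stood at 0.711- and 0.720-fold. Sox6 stood at 3270 CPM in the Lhx8 nuclei and 3396 CPM in the Lhx6 nuclei, and Gad2 at 1024 against 889 CPM. So inside cluster 8 the intervals of the ratio for Ntn1, Lypd6, Gbx1, Ackr3, Npy and Maf did not include 1. Those for Sox6 (0.885 to 1.05) and Gad2 (0.985 to 1.34) did. These intervals cover counting error of summed UMIs only and leave out the spread between nuclei. For Gbx1 the UMIs came from 8 Lhx8 nuclei and 3 Lhx6 nuclei. The genes were chosen after values were seen, and whether the groups differ in them was not tested. Trpc4 stood at 207 against 73.0 CPM, with 51 UMIs in 7 of the 44 nuclei.

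Lhx6 and Lhx8 were often found in the same nuclei. Of the 413 Lhx8 nuclei, 194 had an Lhx6 UMI (47.0%, 42.1 to 51.9%), against 8.75% of the other nuclei. After thinning to 1500 UMIs the shares were 11.4% (8.48 to 14.8%) and 3.25% (2.85 to 3.68%). The share was 33.6% in the Lhx8 nuclei of cluster 6, 33 of 44 in those of cluster 8 and 69.6% in those of cluster 5, where the median depth was highest. Thinned, the same 3 groups stood at 13.4%, 29.5% and 7.59%, with the highest value in cluster 8 and the lowest in cluster 5, and intervals of 16.8 to 45.2% and 2.84 to 15.8% for these. The other 301 nuclei of cluster 6 had Lhx6 in 27.9%, and in 10.3% after thinning (7.11 to 14.3%). That interval overlapped the one of the Lhx8 nuclei of cluster 6 (8.40 to 20.0%), so within this cluster Lhx6 was not particular to them.

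**Figure D5:**
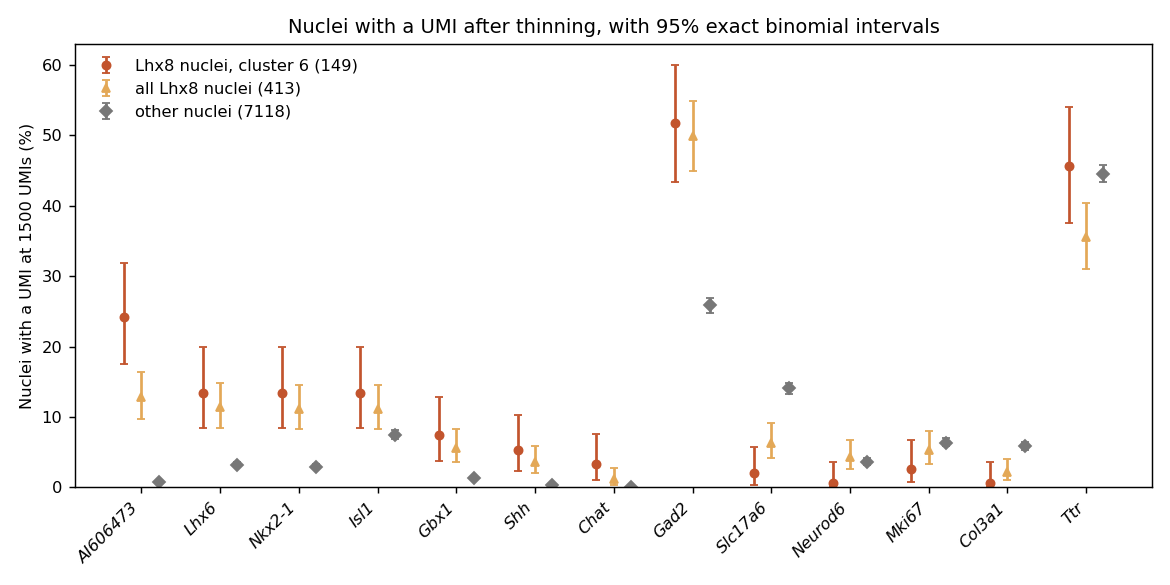
Share of nuclei in percent with at least 1 UMI of each gene shown after thinning to 1500 UMIs, in the Lhx8 nuclei of cluster 6, all Lhx8 nuclei and the other nuclei, with exact 95% binomial intervals. AI606473 was found in 24.2%, 12.8% and 0.773% of these groups, Gad2 in 51.7%, 49.9% and 25.8%, and Ttr in 45.6%, 35.6% and 44.5%.

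Lhx6 was the only one of the 11 measured LIM-homeodomain genes and cofactors past 2-fold in the Lhx8 nuclei. Isl1 stood at 60.8 CPM against 55.4 CPM in the other nuclei, and at 81.3 CPM in the cluster 6 part. Ldb1, the bridging cofactor, stood at 50.0 against 50.8 CPM. Lhx1 and Lhx2, factors of other forebrain neurons, were at 0.206- and 0.0895-fold in the Lhx8 nuclei of cluster 6, and at 0.697- and 0.791-fold in all of them.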

How the data were processed

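Slide-tags single-nucleus RNA sequencing of 1 E14 mouse brain section was analysed. The deposited values are raw UMI counts, made by the authors with Cell Ranger on mm10, intronic reads included. The methods and the hippocampus header give version 6.1.2 and the E14 header 7.0.1. CellBender is named for the embryo, but the E14 file has Cell Ranger's own header, so free RNA was taken to remain. The members and gene lists were chosen with earlier results of these data known.

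UMIs were summed per group, genes with a mean of at least 20 CPM were counted, and 2-fold was the limit. Genes were named if they were given markers, in 1 of 31 lists, among the 20 highest and 10 lowest folds against the other nuclei or the 15 highest and 15 lowest against the Lhx6 nuclei (at least 50 UMIs and 10% of nuclei), or among the 10 most like Lhx8 over clusters. Cluster 6 leading genes, the genes shown within clusters 6 and 8, and the split by Lhx8 UMIs were chosen after values were seen. Nuclei of at least 500 UMIs were clustered with Seurat 5.3.0. Scrublet (scanpy 1.11.5) marked 1 nucleus by its automatic threshold and was judged not to have worked, so the 653 highest scores were marked and kept. Scripts were tested on simulated data. The strand of counting was not given in the sources used here.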

Additional observations from a re-analysis of the deposited data

How the results depend on the processing

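No paired analysis was possible because the groups are parts of 1 library and no test was made. The share of Lhx8 nuclei, 5.48%, was 3.47% with at least 3 Lhx8 UMIs, 10.4% with at least 1, 6.42% among nuclei of at least 3000 UMIs and 0.969% after thinning to 1500 UMIs. Against the other nuclei, the 17 genes at least 2-fold higher and 15 lower became 36 and 102 with each nucleus weighted equally, 72 and 231 within 3000 to 10000 UMIs, 5091 and 1102 with almost no filter, 9 and 3 with a filter at 50 CPM, and 9 and 6 against other nuclei with a Dlx UMI, while 30 were lower without the nuclei of highest doublet scores. Against the Lhx6 nuclei, 31 and 43 became 143 and 126 with equal weights, 363 and 297 within 3000 to 10000 UMIs, 967 and 4232 with almost no filter, 16 and 17 at 50 CPM, 53 and 73 without the highest doublet scores, and 57 and 91 with at least 3 Lhx6 UMIs. The share of Lhx8 nuclei with an Lhx6 UMI, 47.0%, was 11.4% after thinning. The following alternatives were chosen after seeing the data. With the Lhx8 nuclei of cluster 6 only, the counts were 113 and 415 against the other nuclei and 248 and 529 against the Lhx6 nuclei, and without cluster 5 they were 30 and 36, and 80 and 101. Lists with a median above 0 against the Lhx6 nuclei numbered 19 of 31, and 11 with cluster 6 only. The share with an Lhx6 UMI was 33.6% in cluster 6 and 41.6% without cluster 5. Cluster 6 held 36.1% of the Lhx8 nuclei, its counterpart 30.0% when Lhx8 and AI606473 were left out of the clustering genes, and 42.1% without the highest doublet scores. Of the fold values of named genes, 444 kept their direction and, where the main value was past 2-fold, stayed past it. Values short of 2-fold in the main run could cross it and still be among these 444. A further 34 no longer passed 2-fold and 2 reversed, both with cluster 6 only. These 2 were Etv1 against the other nuclei (log2 fold -0.14) and Htr2c against the Lhx6 nuclei (-3.67). The cause of these shifts was not tested. Depth limits genes under 20 CPM, such as Chat and Shh, to a few UMIs.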
